A study of Mus musculus with 4 samples.

Results

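The 44 genes described here are 18 genes of DNA replication in S phase and 26 genes of G2 and mitosis (G2M), fixed as a list, and they are 44 of the 28889 genes listed in the libraries with counts. All 44 were present in every gene list. They were followed through single-cell RNA libraries of mouse liver tumours, in the tumour cells, their subtypes and the surrounding cell types.

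The tumours came from male C57BL/6 mice aged 18 weeks, 10 weeks after plasmids were injected into the tail vein under hydrodynamic pressure, a method that places transposons in hepatocytes. Every mouse received the oncogene plasmid pT3-EF1α-c-MYC together with the kinase plasmid pT3-EF1α-AKT, and the transposase plasmid SB100X to insert them. The KLF2 group had pT3-EF1α-KLF2 in addition, and the vector group had the pT3 empty vector in its place. Both groups thus carried the c-MYC and AKT transgenes, each driven by the EF1α promoter, which is not restricted to one cell type. Counts were analysed for KLF2 replicates 1 and 2 and vector replicate 2, each a separate mouse, and vector replicate 1 was not analysed here. With 2 KLF2 libraries against 1 vector library, an exact permutation test over libraries cannot go below p = 0.33, and every difference from the vector group rests on a single mouse.

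Entry into S phase begins when cyclin-dependent kinases release E2F factors from Rb proteins, and E2F then raises the genes of the replication machinery: the Mcm helicase and its loaders, the enzymes that make deoxynucleotides, and the sliding clamp Pcna. In G2, MYBL2 and FOXM1 together with the MuvB complex raise a later group through a promoter element named CHR, which includes the cyclin B and Cdk1 kinase, the mitotic kinases, the kinetochore and the ubiquitin ligase that starts anaphase. Adult hepatocytes divide rarely, while endothelial, stromal and immune cells of a growing tumour can divide beside the tumour cells.

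Promoter sequences separated these groups of genes. RefSeq promoters of GRCm38.p6, spanning 250 bases before to 50 bases after the gene start, were found for 37 of the 44 members, 21 G2M and 16 S phase. The CHR word TTTGAA, searched on both strands, was present in 16 of 21 G2M promoters (76.2%) and in 3 of 16 S phase promoters (18.8%), against 18.1% of 27025 mouse promoters of the same length. CCAAT was present in 90.5% of G2M promoters and 68.8% of S phase promoters, against 37.9% of all promoters. At least one of the E2F words TTTGGCGC, TTTCCCGC, TTTCGCGC and TTTGCCGC was present in 1 of 21 G2M promoters (4.76%) and in 5 of 16 S phase promoters (31.2%), against 2.32% of all. These matches describe letters within one window and show no binding.

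The promoters of 5 members are shown because their genes recur below. Capitals mark the words listed above on either strand, and adjacent or overlapping matches run together. Cdc20 (chr4:118437294-118437593, minus strand), Plk1 (chr7:122159185-122159484, plus strand) and Mki67 (chr7:135716330-135716629, minus strand) are G2M members and hold CHR and CCAAT. Mcm5 (chr8:75109259-75109558, plus strand) and Mcm6 (chr1:128359656-128359955, minus strand) are S phase members and hold E2F words and CCAAT, with no CHR.
Cdc20: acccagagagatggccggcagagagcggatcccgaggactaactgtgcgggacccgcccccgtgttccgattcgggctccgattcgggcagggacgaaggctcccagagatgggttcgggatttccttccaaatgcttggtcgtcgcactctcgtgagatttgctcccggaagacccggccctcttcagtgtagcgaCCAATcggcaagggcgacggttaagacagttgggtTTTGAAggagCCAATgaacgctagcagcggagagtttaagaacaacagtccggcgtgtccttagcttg
Plk1: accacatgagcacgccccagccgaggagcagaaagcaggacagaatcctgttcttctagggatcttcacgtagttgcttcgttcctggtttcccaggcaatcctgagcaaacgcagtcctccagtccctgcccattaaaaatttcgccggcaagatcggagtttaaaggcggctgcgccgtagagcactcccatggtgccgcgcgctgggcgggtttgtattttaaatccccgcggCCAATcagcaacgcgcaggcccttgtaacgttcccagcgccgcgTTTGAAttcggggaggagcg
Mki67: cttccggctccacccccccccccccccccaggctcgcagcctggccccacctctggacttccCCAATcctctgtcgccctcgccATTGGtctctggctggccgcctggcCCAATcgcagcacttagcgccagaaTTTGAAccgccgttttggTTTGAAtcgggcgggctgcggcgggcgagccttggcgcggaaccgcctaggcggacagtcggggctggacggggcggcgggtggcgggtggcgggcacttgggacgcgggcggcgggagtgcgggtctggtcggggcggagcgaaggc
Mcm5: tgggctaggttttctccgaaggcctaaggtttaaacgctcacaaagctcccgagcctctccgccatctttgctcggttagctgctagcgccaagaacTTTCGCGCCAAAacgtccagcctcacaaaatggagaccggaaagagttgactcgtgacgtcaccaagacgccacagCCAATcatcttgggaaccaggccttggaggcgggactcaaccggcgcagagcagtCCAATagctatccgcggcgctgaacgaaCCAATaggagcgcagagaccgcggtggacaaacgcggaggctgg
Mcm6: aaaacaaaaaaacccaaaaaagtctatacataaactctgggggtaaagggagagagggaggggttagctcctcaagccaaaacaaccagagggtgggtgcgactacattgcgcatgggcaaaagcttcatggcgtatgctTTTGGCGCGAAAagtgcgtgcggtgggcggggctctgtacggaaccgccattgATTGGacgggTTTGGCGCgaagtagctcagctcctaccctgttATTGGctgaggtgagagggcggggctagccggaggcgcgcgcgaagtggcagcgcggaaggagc

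The libraries differed in RNA quality and depth before any gene was compared. KLF2 replicates 1 and 2 held 6209 and 11103 kept cells, against 8403 in vector replicate 2, with a median of 8912 and 5854 UMIs (unique molecular identifiers, one per captured RNA molecule) per kept cell, against 3191. Mitochondrial genes took a median of 0.223% and 0.345% of the UMIs in KLF2 cells, against 11.9% in vector cells, and genes overlapping rRNA took 14.1% and 18.8% of all UMIs, against 28.8%. No batch is given in the labels, so these properties and the group cannot be told apart. Mouse Klf2 itself had 338 and 406 CPM (the UMIs of a gene scaled to the total UMIs of the cells summed) in all KLF2 cells, against 389 CPM in vector cells, and 326 and 380 CPM against 148 CPM in the tumour compartment. Over all cells Klf2 thus did not separate the groups, and in the compartment it was higher in both KLF2 libraries. Whether transcripts of the KLF2 plasmid are counted at the mouse gene is not given in the sources used here. From 550 to 1146 barcode names were shared between pairs of libraries, and 0 of these cells had identical profiles.

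Cells were clustered without the cell cycle genes, and clusters were named from marker lists. The tumour compartment comprised the cholangiocyte-like clusters, the hepatocyte-lineage-like cluster, and unnamed clusters with little of the leukocyte gene Ptprc. It held 5208 and 8354 cells in KLF2 replicates 1 and 2, against 601 in vector replicate 2. Its make-up was nearly disjoint: 598 of the 601 vector cells were in the hepatocyte-lineage-like cluster led by Fabp1, which held 20 and 57 cells of the KLF2 libraries. Hepatocyte-lineage markers summed to 74.2 and 97.5 CPM in the KLF2 compartment, against 6906 CPM in vector cells. Every comparison of the compartment therefore set unlike cells against each other, and whether the vector cells were tumour cells was not tested.

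A cell was called G2M-positive or S-positive when it held at least 2 UMIs of the 26 or 18 members after thinning to 1000 UMIs. Thinning puts all libraries at one total depth, in which UMIs of mitochondrial genes and of genes overlapping rRNA are counted. Genes overlapping rRNA took 13.6% and 18.0% of the UMIs in the KLF2 compartment, against 36.3% in the vector compartment. In the compartment, 15.8% of cells (Wilson 95% interval 14.8 to 16.8) of KLF2 replicate 1 were G2M-positive, as were 10.2% (9.56 to 10.9) of KLF2 replicate 2, against 16.03% (13.3 to 19.2) in vector replicate 2. The vector value lay within the interval of KLF2 replicate 1 and above that of replicate 2. S-positive cells made up 8.87% and 6.66% of the KLF2 compartment, against 6.38% in vector cells, whose interval of 4.66 to 8.67 included the lower KLF2 value. Without thinning, the G2M shares were 60.2% and 43.5%, against 47.2%, and the median depths were 9426 and 6960 UMIs per KLF2 cell, against 3362 UMIs per vector cell. The intervals cover counting error among cells and not the spread between mice.

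These compartment shares depended on what was counted. Without the kinetochore gene Spc24, G2M-positive cells made up 15.3% and 9.91% of the KLF2 compartment, against 11.2% in vector cells. With UMIs of mitochondrial genes and of genes overlapping rRNA removed before thinning, the shares were 18.7% and 12.2%, against 40.2% of the 386 vector cells that still had 1000 UMIs. The S phase shares by that count were 12.3% and 8.90%, against 18.4%, which turned the order of the groups. The order of the KLF2 and vector compartments thus changed with what was counted, and the part of RNA quality in it was not tested.

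Neutrophil-like cells were taken as the background class, since mature neutrophils do not divide. Their cluster also held Camp and Ngp, genes of immature neutrophils, among its 10 leading genes, and Top2a had 69.4 and 38.3 CPM in the KLF2 libraries, against 13.9 CPM, so an absence of dividing cells was not shown. G2M-positive cells were 5.26% and 7.09% of neutrophil-like cells in KLF2 libraries, against 5.56% in the vector library, at median depths of 2642 and 1891 UMIs per KLF2 cell, against 1312 UMIs per vector cell. S-positive cells were 3.51% and 5.67% in KLF2 libraries, against 0 of 54 cells in the vector library. The floor of 3 counts would make 5.56% of those 54 cells, and the Wilson interval is given below with the mesenchymal-like cells. Myeloid-like cells (6.57% and 7.49% G2M-positive, against 7.35%) and B/plasma-like cells (4.95% and 4.70%, against 3.91%) lay near it. With 54 to 141 neutrophil-like cells a library, its intervals reached 14.4% and 12.6% in the KLF2 libraries and 15.1% in the vector library. Only the compartment of KLF2 replicate 1 and the compartment, endothelial-like and mesenchymal-like cells of vector replicate 2 had a G2M share above the background interval of their own library.

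**Figure D1:**
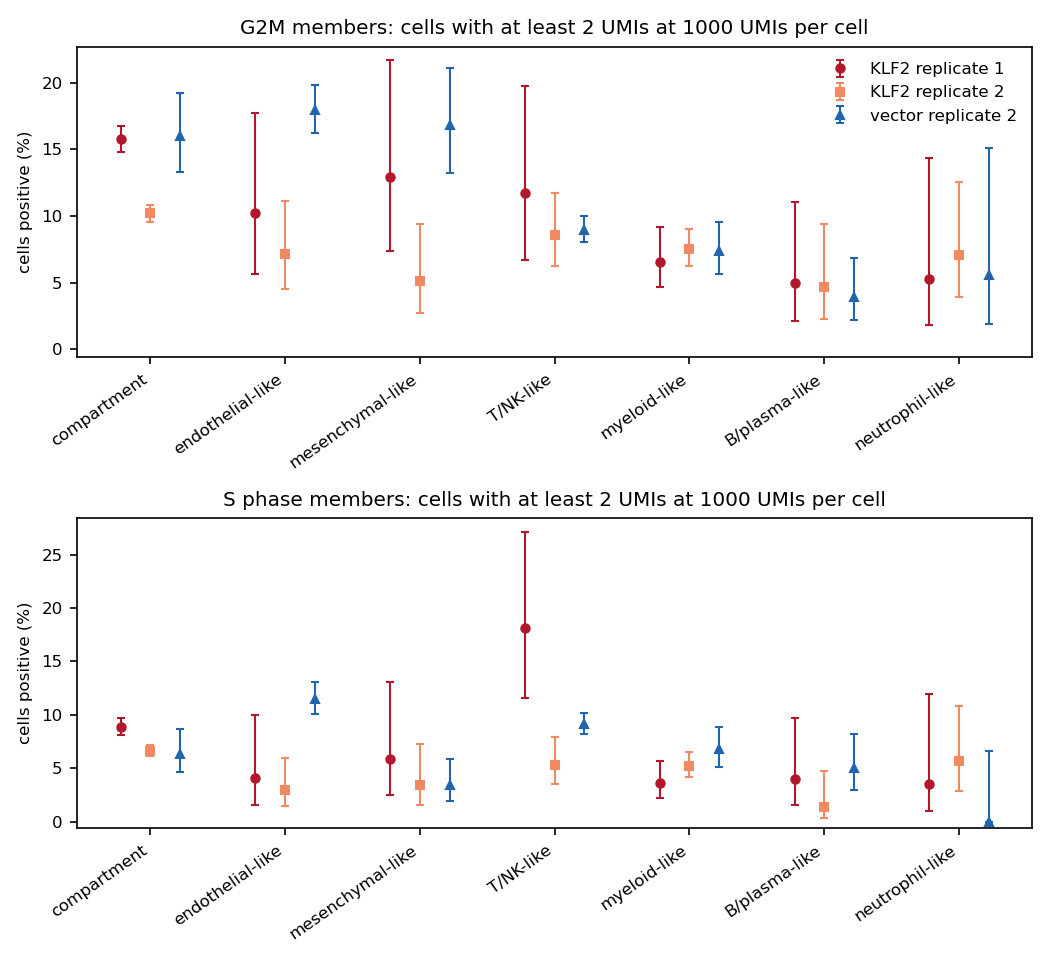
Share of cells (%, y axis) with at least 2 UMIs of the G2M members (upper panel) or the S phase members (lower panel) after thinning to 1000 UMIs, by class and library. Points are single libraries and bars are Wilson 95% intervals over cells. Endothelial-like G2M shares were 10.2% and 7.11% in KLF2 libraries, against 18.0% in vector replicate 2.

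Endothelial-like cells held fewer positive cells in the KLF2 libraries by both lists. G2M-positive cells were 10.2% (5.64 to 17.8) of 98 cells and 7.11% (4.49 to 11.1) of 239 cells in KLF2 replicates 1 and 2, against 18.0% (16.3 to 19.9) of 1752 cells in vector replicate 2. S-positive cells were 4.08% (1.599 to 10.03) and 2.93% (1.43 to 5.92), against 11.5% (10.1 to 13.1). Both KLF2 libraries lay below the vector library for both lists, although the G2M intervals of KLF2 replicate 1 and the vector library overlapped. Limiting cells to at most 10% mitochondrial UMIs gave G2M shares of 10.3% and 7.11%, against 22.1%.

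Mesenchymal-like cells had unlike values in the KLF2 mice. G2M-positive cells were 12.9% (7.38 to 21.7) and 5.11% (2.71 to 9.43) in KLF2 replicates 1 and 2, against 16.8% (13.3 to 21.1) in the vector library, and only KLF2 replicate 2 was clear of the vector interval. S-positive cells were 5.88% and 3.41%, against 3.42%, each within the interval of the neutrophil-like cells of its library (0.968 to 11.9 and 2.90 to 10.8 in KLF2 libraries, against 0 to 6.64). T/NK-like cells were G2M-positive in 11.7% and 8.59% of KLF2 cells, against 8.95% of vector cells, and S-positive in 18.1% and 5.30%, against 9.16%. The KLF2 T/NK-like values lay on both sides of the vector value for both lists.

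Counts summed per library and class were then tested gene by gene with edgeR's quasi-likelihood test, with p-values adjusted by Benjamini-Hochberg over all genes of a class and a threshold of 0.05. The spread came from the KLF2 pair alone, with 1 residual degree of freedom, so the counts of called genes lean on the spread that edgeR pools across genes. The weight of that pooled spread (prior degrees of freedom) was infinite in endothelial-like, mesenchymal-like, T/NK-like and neutrophil-like cells. A gene's own spread thus had no weight in those tests. The prior was 3.71 in the compartment, 5.41 in myeloid-like and 11.8 in B/plasma-like cells. Counts of calls and p-values are therefore not comparable between classes with unlike priors. A log2 fold change is KLF2 over vector after TMM scaling. The standard error (SE) beside it is its absolute value divided by the square root of the test's F statistic. That SE is not a spread measured between mice. The scaling mattered: without it, the median of all genes shifted up by 0.67 in the compartment, 0.40 in endothelial-like, 0.62 in mesenchymal-like, 0.26 in T/NK-like, 0.22 in B/plasma-like, 0.32 in myeloid-like and 0.47 in neutrophil-like cells, all on the log2 scale.

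**Figure D2:**
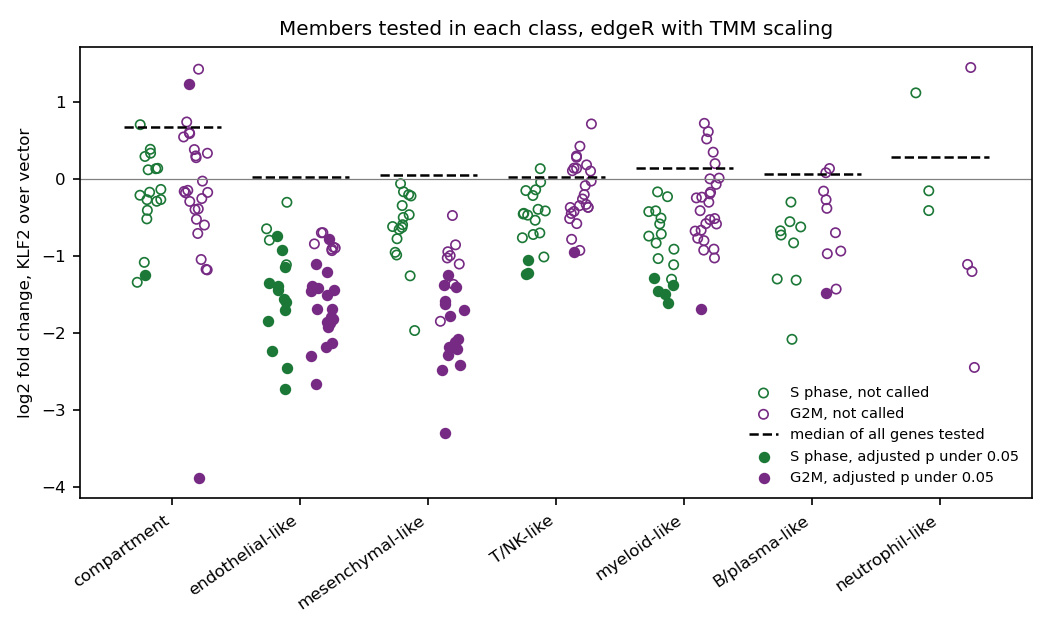
Log2 fold change of each member tested (y axis, KLF2 over vector, TMM scaling) by class, with S phase members in green and G2M members in purple. Filled points passed an adjusted p of 0.05, and dashed lines are the median of all genes tested. Members lay around −1.44 in endothelial-like cells and −0.17 in the compartment, where Spc24 stood apart at −3.87.

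In the compartment few members passed. Of 44 tested, 1 was higher and 2 were lower, or 2.27% and 4.55%, against 13.6% and 10.6% of 20397 genes tested. In 10 simulated draws, 200 genes were changed 4-fold and every gene had this class's common spread. A median of 28 of the 200 were called (15 to 39). Such draws with the spread of endothelial-like cells called a median of 159.5 of 200 (0 to 171). The draws changed few of the genes tested, unlike the real fit with its many calls. They therefore do not give the power of the real tests or rank the classes by it. Few calls in the compartment do not by themselves show that members were unchanged. The members' median log2 fold change was −0.17, against 0.67 for all genes, and their difference from all genes was −0.84 with or without TMM scaling. Because that change of scaling shifts all genes alike, 27 of 44 members lay below 0 with TMM scaling and 8 of 44 with library totals. By plain CPM, 32 members (15 S phase and 17 G2M) were higher in both KLF2 libraries than in the vector library, and 7 were lower in both.

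Among the G2M members of the compartment, Mki67, the chromosome surface protein used as a proliferation marker, had 56.0 and 49.1 CPM in KLF2 replicates 1 and 2, against 36.5 CPM in vector replicate 2 (log2 fold change −0.14 ± 0.24 SE, edgeR adjusted p = 0.659). Top2a, the topoisomerase that untangles chromosomes, had 134 and 110 CPM, against 50.5 CPM (0.60 ± 0.27, edgeR adjusted p = 0.176). Both genes were above the vector level in both KLF2 libraries by CPM, and neither passed the test. Cdk1, the mitotic kinase, had 63.7 and 44.3 CPM, against 40.3 CPM, and its partner Ccnb1 had 38.3 and 21.0 CPM, against 22.7 CPM. Cdc20, the activator of the anaphase ubiquitin ligase, had 54.8 and 29.9 CPM, against 59.8 CPM, with an edgeR adjusted p of 0.107. Cdk1 was higher in both KLF2 libraries, Cdc20 lower in both, and Ccnb1 overlapped.

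In the joint fit of all classes, 0 members were higher and 6 lower, against 19.5% of 14260 genes lower. The share of genes higher in that fit is not given here. Prc1, which bundles microtubules at the spindle midzone, was the member called higher, with 47.6 and 41.6 CPM in KLF2 libraries, against 11.8 CPM in the vector library (1.24 ± 0.27, edgeR adjusted p = 0.0364). Fitted together with all other classes it had an edgeR adjusted p of 0.15, and the call was lost. The gene overlaps Rccd1 on the opposite strand, and the sources used here do not say whether counting used strand. The same holds for Ccna2 with Exosc9, Ube2c with Tnnc2, Cdc20 with Elovl1, Nusap1 with Oip5, Mcm7 with Cops6, Gins2 with Gse1, Cdc45 with Ufd1 and Fen1 with Tmem258. Mcm6, a subunit of the replicative helicase, was called lower, with 30.7 and 22.3 CPM, against 39.3 CPM (−1.24 ± 0.29, edgeR adjusted p = 0.042, and 0.002 in the joint fit).

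The other S phase members named for the compartment did not pass. Pcna, the sliding clamp of DNA polymerase, had 75.6 and 62.7 CPM in KLF2 libraries, against 39.3 CPM in the vector library. Mcm5, another helicase subunit, had 24.8 and 15.08 CPM, against 15.03 CPM. Pcna was above the vector level in both KLF2 libraries, and Mcm5 of KLF2 replicate 2 was level with it. Tyms, which makes thymidylate, had 42.8 and 25.9 CPM, against 25.9 CPM. Uhrf1, which guides DNA methylation to newly copied strands, had 19.2 and 15.9 CPM, against 13.4 CPM. Rrm2, the regulated subunit of ribonucleotide reductase, ran the other way with 19.6 and 12.3 CPM, against 25.3 CPM, and an edgeR adjusted p of 0.0621.

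Spc24, a subunit of the Ndc80 kinetochore complex, had the largest log2 difference of any member tested in the compartment, and it was lower by CPM in both KLF2 libraries than in the vector library in each of the 7 classes. Albumin RNA (Alb), a hepatocyte product, was also measured in these classes. It had 3021 and 1498 CPM in KLF2 hepatocyte-lineage-like cells, against 582 CPM in vector ones. Outside them it was lower in the KLF2 libraries, with 5.04 and 0 CPM in T/NK-like cells, against 70.4 CPM in the vector library, and 9.39 and 2.78 CPM in endothelial-like cells, against 60.1 CPM. Mesenchymal-like cells had 0 and 1.65 CPM, against 56.3 CPM, and myeloid-like cells 1.18 and 2.30 CPM, against 57.6 CPM. B/plasma-like cells had 2.08 and 4.11 CPM, against 85.9 CPM, and neutrophil-like cells 0 and 4.25 CPM, against 138 CPM. The part of this difference in the Spc24 values outside the hepatocyte-lineage-like cells was not tested. The gene lies at chr9:21755442-21760303 on the minus strand of GRCm38, spans 4862 bases and overlaps no annotated gene. In the compartment it had 35.6 and 18.5 CPM in KLF2 replicates 1 and 2, against 248 CPM in vector replicate 2 (−3.87 ± 0.44, edgeR adjusted p = 0.0079, and 5e-06 in the joint fit). Both KLF2 libraries were far below the vector library. The vector signal came from the hepatocyte-lineage-like cluster, where 776 UMIs were counted and 37.1% of 598 cells held at least 1, against 3 UMIs in 20 cells and 4 UMIs in 57 cells of KLF2 replicates 1 and 2. In those cells Spc24 had 40.5 and 8.15 CPM in the KLF2 libraries, against 249.5 CPM in the vector library.

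Among the groups given here, cells with Spc24 held other G2M members least often in the vector hepatocyte-lineage-like cluster. There, 25.9% (17.8 to 36.1) of 85 cells with a Spc24 UMI at 1000 UMIs were positive for the other 25 G2M members, against 8.74% (6.55 to 11.6) of 492 cells without one. In the KLF2 compartment the shares were 56.1% (48.6 to 63.4) and 47.9% (39.2 to 56.8) of cells with Spc24, against 13.9% and 9.35% of cells without it. In vector endothelial-like cells they were 51.2% (40.6 to 61.7) against 15.4%, and in vector T/NK-like cells 34.7% (26.01 to 44.5) against 7.70%. In each of these groups cells with Spc24 were more often positive for other members. The interval of the vector hepatocyte-lineage-like cells lay below those of the KLF2 compartment and vector endothelial-like cells and overlapped that of the T/NK-like cells.

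**Figure D3:**
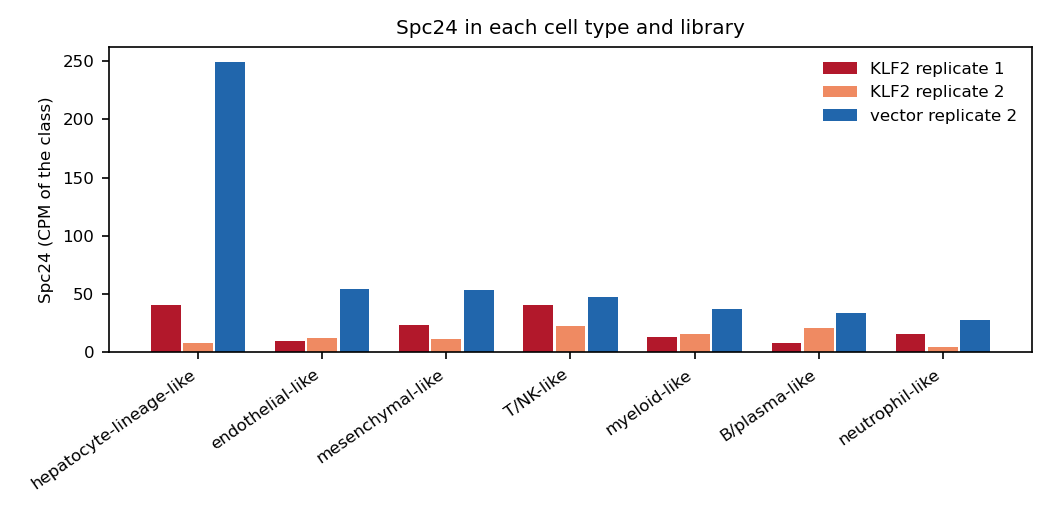
Spc24 in CPM (y axis, from 0) in hepatocyte-lineage-like cells and each other class, one bar per library. The vector library reached 249.5 CPM in hepatocyte-lineage-like cells and at most 54.2 CPM in any other class plotted.

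In endothelial-like cells the members fell as a group. Of 43 tested, 32 were lower and 0 were higher, or 74.4% lower, against 14.0% lower and 14.4% higher among 10610 genes tested. Both lists took part, with S phase and G2M counts of 13 of 17 and 19 of 26 lower. The members' median was −1.44, against 0.02 for all genes. All 43 lay below 0 with TMM scaling and 42 of 43 with library totals, and by CPM 16 of 18 S phase and 23 of 26 G2M members were lower in both KLF2 libraries than in the vector library.

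Each functional group of members was represented. All 4 members of nucleotide supply were called lower, as were both members of the anaphase ubiquitin ligase and both of chromosome structure, 6 of 7 of spindle and cytokinesis, 6 of 9 of the helicase and its loading, 3 of 4 tested of fork, repair and chromatin copying, 3 of 4 cyclins with Cdk1, 3 of 5 of centromere and kinetochore, and 3 of 6 mitotic kinases and passenger proteins. Mki67 had 24 and 38.9 CPM in KLF2 replicates 1 and 2, against 122 CPM in vector replicate 2 (−2.30 ± 0.30, edgeR adjusted p = 1.7e-12). Spc24 had 9.39 and 12.5 CPM, against 54.2 CPM, a log2 fold change of −2.65. Both genes were lower in both KLF2 libraries by a wide margin. Top2a had 52.2 and 46.5 CPM, against 135 CPM (−1.85), and Cdc20 had 16.7 and 13.2 CPM, against 49.3 CPM (−2.13). Cdk1 was called at the edge, with 66.8 and 33.3 CPM, against 63.1 CPM, and its KLF2 values lay on both sides of the vector value.

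Shares of all genes called are not given here for settings other than the main and joint fits. Counts under those other settings, in this class and those below, thus have no background beside them. The endothelial count varied with the setting. It was 18 of the same 32 when all classes were fitted together (where 6.25% of 14260 genes were lower), 8 with DESeq2, 11 with library totals, 0 of the 29 still tested when each library gave an equal number of cells, and 0 of the 14 still tested when each cell was thinned to 1000 UMIs. The cells also differed in kind: KLF2 endothelial-like cells lay mostly in a cluster led by Gpihbp1 and holding Stab2 and Clec4g, and vector cells in clusters led by Fabp4 (19.4% G2M-positive) and by Nts (11.8%). The median mitochondrial share was 0.742% in the cluster led by Gpihbp1, against 10.4% in the Fabp4-led and 11.8% in the Nts-led cluster. T/NK markers summed to 7.3 and 24.3 CPM in KLF2 endothelial-like cells (11 and 6 of 15 markers at 0), against 609 CPM in vector cells (0 at 0), and endothelial markers to 8346 and 5583 CPM, against 3789 CPM. At clustering resolution 2.0, 98 vector cells and 0 KLF2 cells formed a cluster led by Fabp4 and Ccl5, unnamed and outside this class. Mki67 was found in 37.8% of them. All 32 calls were kept at that resolution. The part of the differences in kind, mitochondrial share and marker sums in the fall of the members was not tested.

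Mesenchymal-like cells, led by Tagln, Col3a1 and Acta2, had lower G2M members and no called S phase member. At clustering resolution 2.0 this class split into a cluster led by Tagln, with 10 and 13 KLF2 cells against 355 vector cells, and a cluster led by Col3a1, with 76 and 162 KLF2 cells against 0 vector cells, and the part of this split in the result was not tested. Of 39 members tested, 15 were lower and 0 higher, or 38.5% lower, against 8.96% lower and 11.0% higher among all genes tested. All 15 were among the 23 G2M members tested, and 0 of 16 S phase members passed, with 0 at an unadjusted p under 0.05 in edgeR and 0 adjusted in DESeq2. All 39 lay below 0 with TMM scaling and 28 of 39 with library totals, and by CPM 21 of 26 G2M members but 3 of 18 S phase members were lower in both KLF2 libraries. The medians were −1.62 for G2M and −0.60 for S phase members, against 0.05 for all genes. The difference between the lists was not tested.

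Plk1, the kinase that drives entry into and through mitosis, had 9.59 and 2.48 CPM in KLF2 mesenchymal-like cells, against 39.5 CPM in vector cells (−3.29 ± 0.51, edgeR adjusted p = 4.2e-09). Tpx2, which builds spindle microtubules, had 19.9 and 2.48 CPM, against 41.3 CPM. Ube2c, the ubiquitin-conjugating enzyme of the anaphase ligase, had 48.7 and 22.3 CPM, against 113 CPM, and Spc24 had 23.6 and 11.6 CPM, against 53.2 CPM. All 4 were lower in both KLF2 libraries, and lowest in KLF2 replicate 2. The 2.48 CPM of Plk1 and of Tpx2 there lay at 3 counts, the floor used here, so both values rest on few UMIs. The joint fit kept 10 of the 15 calls (7.68% of genes lower), DESeq2 kept 2, and thinned cells kept 0 of the 5 still tested. Summed T/NK markers were 13.3 and 32.2 CPM in KLF2 cells, against 551 CPM, and cholangiocyte markers 1417 and 2754 CPM, against 39.9 CPM, and their part in the result was not tested.

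Few members were called in the immune classes. In myeloid-like cells, where 37 of 44 members lay below 0 with TMM scaling and 29 with library totals, 6 of 44 members were lower and 0 higher (13.6% lower, against 7.45% of genes lower and 12.1% higher), and 5 of the 6 were S phase members. Mcm3, a helicase subunit, had 22.2 and 23.4 CPM in KLF2 libraries, against 55.7 CPM in the vector library (−1.61 ± 0.25, edgeR adjusted p = 0.00926). Spc24 had 13.4 and 15.7 CPM, against 37.4 CPM, Mcm6 had 14.4 and 18.0 CPM, against 35.8 CPM, and Mcm5 had 10.9 and 14.4 CPM, against 28.6 CPM. All 4 were lower in both KLF2 libraries, and Rrm2 and Uhrf1 completed the calls. The joint fit (7.73% of genes lower) and DESeq2 each kept 3. Among the wider regulators described below, the G1 cyclin Ccnd3 was lower too, with 38.4 and 33.7 CPM, against 111.9 CPM. KLF2 and vector myeloid-like cells lay in different clusters, the KLF2 cells in those led by Mmp12, Cd5l and Saa3 and the vector cells in one led by H2-Ab1.

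In T/NK-like cells, where 33 of 43 members lay below 0 with TMM scaling and 25 with library totals, 4 of 43 members were lower and 0 higher (9.30% lower, against 9.09% of genes lower and 11.6% higher), a share near the background. They were Mcm3 (33.6 and 19.3 CPM in KLF2 libraries, against 47.9 CPM), Mcm6 (52.1 and 31.8 CPM, against 68.2 CPM), Mcm5 (25.2 and 15.6 CPM, against 37.1 CPM) and Spc24 (40.3 and 23.1 CPM, against 47.5 CPM). KLF2 T/NK-like cells lay almost all in a cluster led by Gzma (93 and 395 cells), and vector cells in clusters led by Hcst (2411 cells) and Ccl5 (1005 cells). All 4 calls were lost in the joint fit (3.73% of genes lower), in DESeq2 and with library totals. In B/plasma-like cells 1 of 19 members was lower and 0 higher, against 5.41% of genes lower and 6.3% higher. It was Mki67, with 27.1 and 26.7 CPM in KLF2 libraries, against 65.0 CPM, and it was lost in the joint fit (2.36% of genes lower) and in DESeq2. B/plasma-like cells also lay apart by group, with 101 and 149 KLF2 cells in one cluster and 295 of 297 vector cells in another. In neutrophil-like cells 0 of 7 members tested passed in edgeR or DESeq2, with 1 at an unadjusted p under 0.05, against 4.89% of genes lower and 6.3% higher.

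Whether the change in one class differed from the mean change of the other classes was asked in the joint fit, as a contrast added after these counts were seen. That fit has 7 residual degrees of freedom because it treats the classes of one mouse as separate samples, with no library term, so its p-values are not those of independent mice. The mean gave equal weight to neutrophil-like cells, where 7 members had enough counts for that class's own test. The median contrast of all genes was −0.43 in the compartment, −0.35 in endothelial-like and −0.31 in mesenchymal-like cells, against 0.97 in neutrophil-like cells. The part of neutrophil-like cells in these contrasts was not tested. Spc24 in the compartment passed (−2.42 ± 0.50, edgeR adjusted p = 0.00913), where 6.42% of 14260 genes passed as lower and 0.281% as higher. No member passed in endothelial-like cells, with 13 at an unadjusted p under 0.05, against 0.238% of genes lower and 0.449% higher. No member passed in mesenchymal-like cells, with 9 at an unadjusted p under 0.05, against 0.414% and 0.0701% of genes. The fall in endothelial-like cells was not shown to exceed the mean change of the other classes, neutrophil-like cells included.

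Regulators of the cycle outside the member list were counted in the same fits, from a list of 168 genes. In the compartment 14 of 168 were higher and 4 lower, against 13.6% and 10.6% of all genes tested. The G1 group gave 4 of 16 higher and 0 lower, among them Cdkn1a, an inhibitor of cyclin-dependent kinases, with 898 and 973 CPM in KLF2 libraries, against 77.1 CPM in the vector library (2.93 ± 0.33, edgeR adjusted p = 0.0077). Ccnd1, the G1 cyclin D1, had 415 and 299 CPM, against 70.3 CPM (1.67, edgeR adjusted p = 0.0316). An inhibitor and an activator of the G1 kinases were thus both higher. E2f1 had 13.5 and 11.4 CPM, against 6.71 CPM, and Foxm1 had 11.5 and 7.17 CPM, against 8.63 CPM, and neither passed. Gas2l3, a cytoskeletal linker, was higher with 137 and 110 CPM, against 6.39 CPM (3.60), and it is among the 10 leading genes of the Car3-led tumour cluster. Cenpm, a centromere protein, was lower, with 12.2 and 6.90 CPM, against 39.3 CPM, as were the tubulin Tuba1c (129 and 113 CPM, against 229 CPM) and the replication factor Mcm10 (5.98 and 5.80 CPM, against 10.9 CPM). Rfc3, a clamp loader subunit, was higher, with 59.4 and 70.1 CPM, against 9.59 CPM.

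Cdkn1a was also higher in KLF2 mesenchymal-like (376 and 514 CPM, against 66.5 CPM), T/NK-like (176 and 245 CPM, against 34.0 CPM), B/plasma-like (210 and 459 CPM, against 8.81 CPM), myeloid-like (543 and 524 CPM, against 200 CPM) and neutrophil-like cells (1597 and 1023 CPM, against 62.3 CPM). In the joint fit the myeloid call was lost (edgeR adjusted p = 0.106) and the others were kept. In endothelial-like cells it had 347 and 337 CPM, against 192 CPM, and did not pass (edgeR adjusted p = 0.291). Of the list in endothelial-like cells, 67 of 149 listed genes tested were lower and 3 higher, against 14.0% and 14.4% of all genes, the lower ones led by the DNA ligase Lig1 (16.7 and 13.9 CPM in KLF2 cells, against 67.0 CPM), the tubulin Tuba1b (520 and 326 CPM, against 1161 CPM) and the lamin Lmnb1 (36.5 and 31.2 CPM, against 107 CPM). Of the transcription factors, E2f1, Mybl2 and Foxm1 were lower, and the CDK inhibitor Cdkn2b was higher (19.8 and 12.5 CPM, against 1.68 CPM). In mesenchymal-like cells 24 of 121 were lower and 2 higher, against 8.96% and 11.0% of all genes, 22 of the 24 from the other G2M genes, with Tuba1b, Cenpm and Cdca3 first and Cdkn2b (67.9 and 48.7 CPM, against 3.50 CPM) first among the higher. T/NK-like cells had 7 higher and 11 lower of 157, against 11.6% and 9.09% of all genes, with Gas2l3 (42.0 and 28.7 CPM in KLF2 cells, against 4.32 CPM) and the histone H2afz (736 and 771 CPM, against 314 CPM) among the higher. Of the other classes, B/plasma-like cells had 4 and 2 of 66 (6.3% and 5.41% of all genes), myeloid-like cells 5 and 11 of 166 (12.1% and 7.45%), and neutrophil-like cells 4 and 0 of 33 (6.3% and 4.89%). With DESeq2 the endothelial count fell to 8 lower and 0 higher, and with thinned cells to 0 of each.

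Which cell types held the most of the members was asked with a library block, each class against the mean of the others over 12134 genes. T/NK-like cells had 17 members higher, 11 S phase and 6 G2M, or 38.6%, against 13.5% of genes higher and 10.3% lower, led by Dut, which removes dUTP, the histone mRNA binder Slbp, Mcm6 and the centromeric histone Cenpa. The compartment had 11 higher, or 25%, against 14.3% of genes higher and 13.5% lower, and 9 of the 11 were G2M members: Ccnb1, Spc25, Spc24, Hmmr, Ccna2, Cdc20, Aurka, Birc5 and Ube2c, with Dut and Rrm2 of the S phase list. Endothelial-like cells had 3 higher (Cdc6, Mcm3 and Rrm1), against 16.8% of genes higher and 8.1% lower. Mesenchymal-like cells had 3 lower (Slbp, Pcna and Mcm3), against 6.64% of genes lower and 16.4% higher, and neutrophil-like cells had 2 lower (Rrm1 and Ccna2), against 3.92% lower and 7.08% higher. Neither B/plasma-like nor myeloid-like cells had a called member in edgeR, with 7 and 5 at an unadjusted p under 0.05, against 7.45% of genes higher and 3.7% lower in B/plasma-like and 13.4% and 5.69% in myeloid-like cells.

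These counts moved with every library left out. Without KLF2 replicate 1, 4 members were higher in T/NK-like cells (3 of the same 17), 2 in the compartment and 0 in endothelial-like cells, and 1 was lower in mesenchymal-like cells. Without KLF2 replicate 2, 4 were higher in T/NK-like cells, 5 in the compartment and 0 in endothelial-like cells, and 1 was lower in mesenchymal-like cells. Without the vector library, 21 were higher in T/NK-like cells (15 of the same 17), 20 in the compartment (9 of the same 11) and 0 in endothelial-like cells, and 7 were lower in mesenchymal-like cells. The compartment of the last fit is the set of KLF2 clusters described next.

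Within the KLF2 libraries, the members varied several-fold among the compartment's clusters, named here by their leading genes. The cluster led by Ldhb and Igfbp2 was the highest by both lists in both libraries: 32.4% and 20.8% of its cells were G2M-positive and 22.7% and 22.5% S-positive, in KLF2 replicates 1 and 2. In the Car3-led cluster 19.0% and 15.5% were G2M-positive and 9.99% and 9.51% S-positive, and in the Prss56-led cluster 15.8% and 13.3% and 11.0% and 11.2%. Apart from the few hepatocyte-lineage-like cells, the cholangiocyte-like cluster led by Defa21, a defensin gene, was the lowest by both lists in both libraries (3.92% and 1.17% G2M-positive, 0 of 51 cells and 1.17% S-positive). Its name rests on 8 raised markers of the cholangiocyte list. Of its 10 leading genes, 0 are on that list, and they include Tchh, Krt84, Krt36 and Krt9, so the name is uncertain. The Krt8-led cholangiocyte-like cluster had 6.47% and 4.52% G2M-positive cells, the Ibsp-led cluster 8.13% and 3.02%, the Lrrc4c-led cluster 8.99% and 5.53% and the Hbb-bs-led cluster 11.1% and 10.1%. In KLF2 replicate 2 the first 3 of these and the Defa21-led cluster lay below the point value of the neutrophil-like share of that library. That share rests on 141 cells, and the values of the Krt8-led and Lrrc4c-led clusters lay within its interval. Clusters were formed from these cells without the cycle genes, and no test was made between them.

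**Figure D4:**
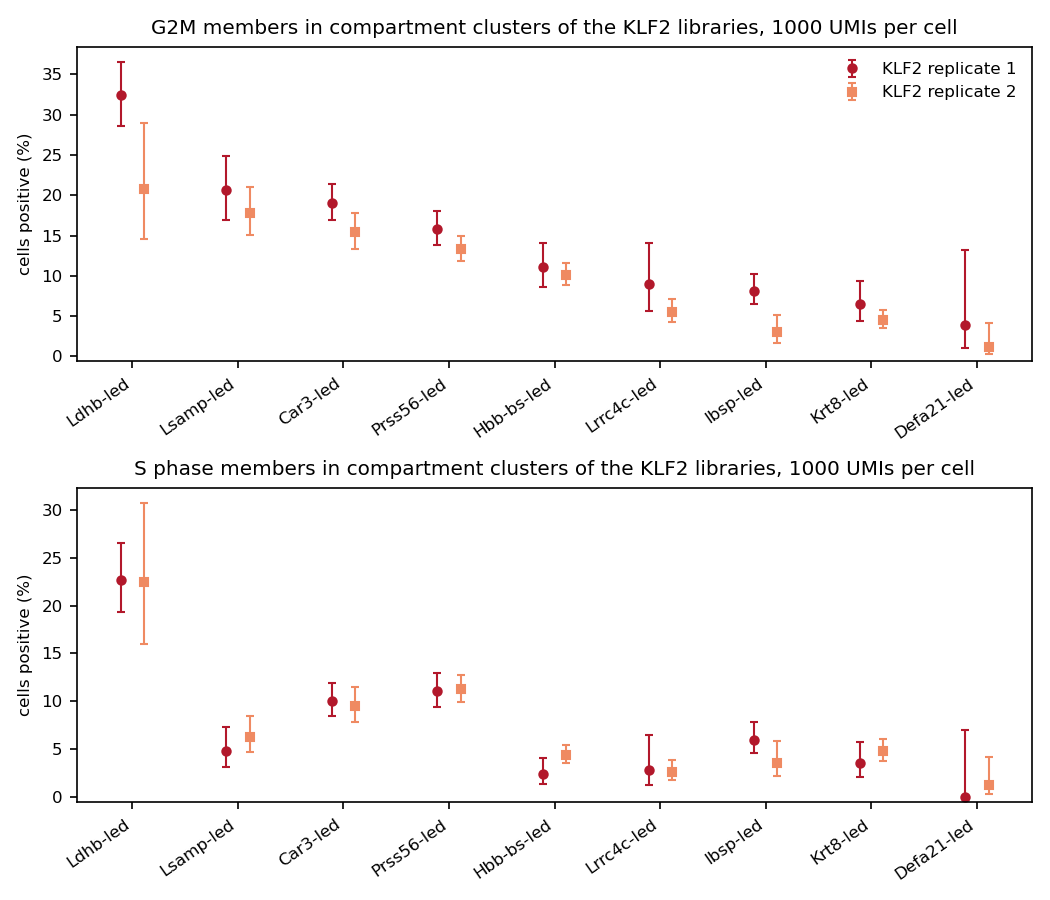
Share of cells (%, y axis) positive for the G2M members (upper panel) or the S phase members (lower panel) at 1000 UMIs in each compartment cluster of KLF2 replicates 1 and 2, named by its leading gene. Bars are Wilson 95% intervals. The Ldhb-led cluster was highest by both lists, and the Lsamp-led cluster was high by the G2M list alone.

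Single members differed in the cluster where they were highest. Mki67 had 82.5 and 50.2 CPM in the Ldhb-led cluster, 81.8 and 91.2 CPM in the Car3-led and 45.9 and 59.1 CPM in the Prss56-led cluster, against 14.6 and 18.1 CPM in the Krt8-led cluster. Mcm5 had 50.1 and 39.5 CPM in the Ldhb-led cluster, 26.5 and 18.4 CPM in the Car3-led cluster and 16.1 and 10.6 CPM in the Krt8-led cluster. The Ldhb-led cluster thus had the highest Mcm5 level in both libraries, and its Mki67 level was matched or passed by the Car3-led cluster in KLF2 replicate 2. Relative to the Car3-led cluster, 35 and 24 of the 44 members were higher in the Ldhb-led cluster in the 2 libraries, and the S phase members had median log2 ratios of 0.66 and 0.84, against 0.14 and −0.34 for G2M members. The hepatocyte-lineage-like cluster had 1 of 57 cells G2M-positive in KLF2 replicate 2 and 0 of 20 in KLF2 replicate 1, against 16.1% of 577 cells in the vector library.

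The Lsamp-led cluster, whose leading genes include the neuronal adhesion and receptor genes Cntn4, Grm8 and Unc5c, joined a high G2M share with a low S phase share. G2M-positive cells were 20.6% and 17.9%, and S-positive cells 4.77% and 6.27%. Mki67 reached 139 and 112 CPM and Top2a 224 and 211 CPM there, the highest of any compartment cluster for both genes. Cdk1 was 37.2 and 37.4 CPM, below 80.7 and 75.1 CPM in the Car3-led cluster. G2M members thus disagreed among themselves in these cells.

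Across the G2M members as a set, levels in this cluster relative to the Car3-led cluster went with gene length. Mki67, Top2a and Cdk1 (26578, 31247 and 17793 bases) are all among the 13 longest, so a split by length does not separate them. Across the 26 G2M members, the log2 ratio of the Lsamp-led to the Car3-led cluster had a Spearman correlation with gene length of 0.76 and 0.52 in KLF2 replicates 1 and 2, given as a description since these members share cells and libraries. The 13 longest genes (17793 to 61075 bases) had median ratios of 0.27 and 0.29, and the 13 shortest (4452 to 14346 bases) −0.82 and 0.13. The Hbb-bs-led cluster (0.66 and 0.46) and the Lrrc4c-led cluster (0.71 and 0.51) had positive correlations too, and the Prss56-led cluster a negative one (−0.62 and −0.65). Over all 44 members the correlations were weaker: 0.62 and 0.38 (Lsamp-led), 0.48 and 0.15 (Hbb-bs-led), 0.54 and 0.16 (Lrrc4c-led) and −0.43 and −0.38 (Prss56-led). The 3 clusters with positive values had median depths of 4707 (Lsamp-led), 2210 (Hbb-bs-led) and 5739 (Lrrc4c-led) UMIs per cell, against 12490 in the Car3-led cluster, and the part of depth in the pattern was not tested.

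**Figure D5:**
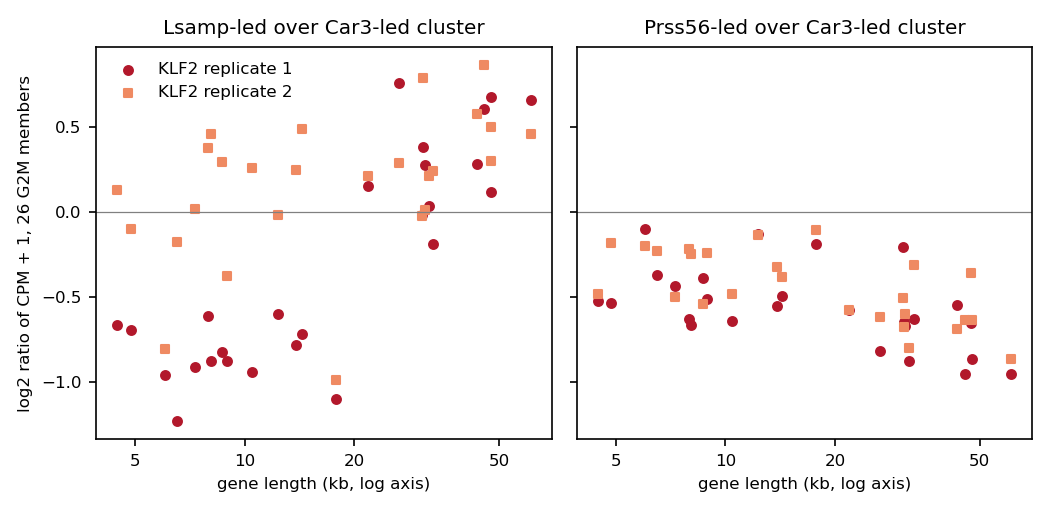
Log2 ratio of CPM + 1 of each of the 26 G2M members (y axis) in the Lsamp-led cluster (left) and the Prss56-led cluster (right) over the Car3-led cluster, against gene length (x axis, kb, log axis), for KLF2 replicates 1 and 2. In the left panel long genes lie higher, with correlations of 0.76 and 0.52, and in the right panel they lie lower, with −0.62 and −0.65.

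At equal depth, cells with G2M members were compared with cells without them. In the compartment, S-positive cells made up 27.0% of the G2M-positive and 5.47% of the G2M-negative cells for KLF2 replicate 1, 24.1% and 4.68% for KLF2 replicate 2, and 13.98% and 4.93% for vector replicate 2. In T/NK-like cells S-positive cells made up 20.6% of the G2M-positive and 3.87% of the G2M-negative cells in KLF2 replicate 2, against 25.9% and 7.51% in vector replicate 2. Vector endothelial-like cells gave 21.9% and 9.19%. In vector mesenchymal-like cells the shares were 6.78% (2.67 to 16.2) and 2.74% (1.40 to 5.31), with overlapping intervals.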

How the data were processed

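Single-cell RNA of mouse liver tumours was captured with a DNBelab C Series kit, per the labels' protocols. The authors deposited raw UMI counts per gene and cell, whose file headers name PISA v1.0, and the submitters' processing notes name GRCm38. No source used here names an aligner or strand handling. Members and lists were chosen with earlier results of these data known.

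Barcodes under 300 genes or over 25% mitochondrial UMIs were dropped, which removed 1.16% and 1.22% of barcodes in KLF2 replicates 1 and 2, against 34.6% in vector replicate 2. The libraries held 95374838 and 125458473 UMIs, against 45594544 UMIs in vector replicate 2, with lowest barcode totals of 1000 and 1000, against 522. Scrublet called 0 doublets, so it had not worked, and removing the top 5% of scores was tried instead. Cells were clustered with scanpy 1.11.5 (Python 3.11.15) and leidenalg 0.10.2 at resolution 1.0, from 2000 variable genes, 30 components and 15 neighbours, without 279 cell cycle and histone genes. Classes were named "-like" from marker lists, and the unnamed clusters of the compartment had under 100 CPM of Ptprc.

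Counts summed per class and library were tested with edgeR 4.0.16 (R 4.3.3) quasi-likelihood, TMM scaling and Benjamini-Hochberg adjustment over all genes tested. DESeq2 1.42.0, other scalings, filters, clusterings and depths were alternatives. The code was tested on simulated data. Shares used cells thinned to 1000 UMIs, and intervals and the floor of 3 counts cover counting error only. Gene positions come from GENCODE M21 and promoters from RefSeq GRCm38.p6. Values were given for a fixed set of common cycle markers in the compartment and, in each class, for up to 4 members and up to 3 wider genes called per direction, ranked by adjusted p. Cdk1 in endothelial-like cells, Cdkn1a outside the compartment and the genes given by cluster were chosen after their values were seen. Promoters of 7 members were not matched.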

Additional observations from a re-analysis of the deposited data

Results flagged for a closer look

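Spc24, the kinetochore gene, was the member whose change in the tumour compartment differed from the mean change of the other classes. The difference of log2 fold changes was −2.42 ± 0.50 (edgeR joint fit, adjusted p = 0.00913), in a fit that treats the classes of one mouse as separate samples. The mean of the other classes included neutrophil-like cells, which had few UMIs of the members. Spc24 had 35.6 and 18.5 CPM in the KLF2 compartment, against 248 CPM in the vector compartment, and was lower in 2 of 2 KLF2 libraries. The vector value rests on one library and one cluster, which held 20 and 57 cells of the KLF2 libraries, and the part of that difference in cells was not tested.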

How the results depend on the processing

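Over 759 alternative values for the members called between KLF2 and vector, 568 kept the call, 191 lost it and 0 reversed, and members that gained a call are outside this tally. Over the counts, share differences and other main results, 507 alternative values stayed near the main one, 173 moved and 11 reversed, all 11 among the share differences. No paired analysis was possible because the labels link no KLF2 mouse to a vector mouse. Leaving out a KLF2 library leaves no residual degrees of freedom for KLF2 against vector, so no count is given for it. Depth limits the small classes: 54 to 141 neutrophil-like cells a library carried the background shares. Main counts stand in the report. The cause of each change below was not tested. Numbers of genes tested and shares of all genes called are not given in this section. Its counts therefore cannot tell a change of the listed genes from a change in all calls of a fit.

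DESeq2 called 2 members higher and 5 lower in the compartment, and lower members were 8 in endothelial-like, 2 in mesenchymal-like, 0 in T/NK-like, 0 in B/plasma-like and 3 in myeloid-like cells. Of the wider list it called 8 lower in the compartment, 0 higher and 8 lower in endothelial-like, 3 lower in mesenchymal-like, 2 higher and 0 lower in T/NK-like, 1 and 0 in B/plasma-like, 3 and 6 in myeloid-like and 1 higher in neutrophil-like cells. RLE size factors gave 7 lower of the wider list in the compartment, and 7 higher and 5 lower in B/plasma-like cells. One fit of all classes gave 0 members higher and 6 lower in the compartment, and lower members of 18 in endothelial-like, 0 in T/NK-like, 0 in B/plasma-like and 3 in myeloid-like cells. Its wider counts were 13 lower in the compartment, 37 lower in endothelial-like, 3 higher and 3 lower in T/NK-like and 2 and 1 in B/plasma-like cells.

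Thinned cells gave 0 members higher and 4 lower in the compartment, and lower members of 0 in endothelial-like, 0 in mesenchymal-like, 1 in T/NK-like, 0 in B/plasma-like and 2 in myeloid-like cells. Wider counts were then 9 higher in the compartment, 0 and 0 in endothelial-like, 1 and 1 in mesenchymal-like, 2 and 1 in T/NK-like, 1 and 0 in B/plasma-like, 2 and 4 in myeloid-like and 1 higher in neutrophil-like cells. Equal cell numbers gave 0 higher and 9 lower in the compartment, and lower members of 0 in endothelial-like, 9 in mesenchymal-like, 0 in T/NK-like, 0 in B/plasma-like and 3 in myeloid-like cells. Wider counts were 16 lower in the compartment, 0 and 0 in endothelial-like, 13 lower in mesenchymal-like, 2 and 0 in T/NK-like, 2 and 0 in B/plasma-like and 7 lower in myeloid-like cells. Library totals gave 5 members higher and 1 lower in the compartment, and lower members of 11 in endothelial-like, 8 in mesenchymal-like and 0 in T/NK-like cells. Wider counts were 57 and 2 in the compartment, 10 lower in endothelial-like, 9 and 8 in mesenchymal-like, 0 lower in T/NK-like, 7 higher in B/plasma-like and 8 and 6 in myeloid-like cells. Without a count filter 2 members were higher and 5 lower in the compartment and 12 lower in myeloid-like cells, and wider counts were 30 and 11 in the compartment, 4 higher in T/NK-like, 2 higher in B/plasma-like and 20 lower in myeloid-like cells.

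With at most 10% mitochondrial UMIs, 0 members were higher in the compartment, and 8 were lower in T/NK-like, 7 in B/plasma-like and 10 in myeloid-like cells. Wider counts were 4 higher in T/NK-like, 2 and 6 in B/plasma-like and 3 higher in myeloid-like cells. With at least 500 genes or with cycle genes in the clustering, 4 wider genes were lower in B/plasma-like cells. Resolution 2.0 gave 1 member lower in the compartment and 3 in B/plasma-like cells, and 4 wider genes higher in mesenchymal-like and 7 in B/plasma-like cells, a count also given without mitochondrial and rRNA-overlapping genes.

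For each class against the others, at least 500 genes gave 1 member higher and 1 lower in endothelial-like, 11 lower in mesenchymal-like, 3 lower in B/plasma-like and 2 higher in myeloid-like cells. At most 10% mitochondrial UMIs gave 1 and 1 in endothelial-like, 13 lower in mesenchymal-like and 1 higher in myeloid-like cells. Resolution 2.0 gave 5 higher in endothelial-like, 5 lower in mesenchymal-like, 1 lower in B/plasma-like, 1 higher in myeloid-like and 4 lower in neutrophil-like cells. Without either KLF2 library counts were 2 to 5 higher in the compartment, 0 to 0 in endothelial-like, 1 to 1 lower in mesenchymal-like, 4 to 4 higher in T/NK-like and 1 to 1 lower in neutrophil-like cells. Without vector replicate 2 they were 20 in the compartment, 21 in T/NK-like, 0 in endothelial-like, 7 lower in mesenchymal-like, 1 higher in myeloid-like and 1 lower in neutrophil-like cells.

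Differences of shares, mean KLF2 minus vector, are in percentage points. For G2M, at least 1 UMI gave −11.2 in the compartment, −11.65 in endothelial-like, 4.615 in T/NK-like, 6.645 in B/plasma-like and 1.695 in myeloid-like cells, and at least 3 UMIs gave −0.118 in B/plasma-like cells. At most 10% mitochondrial UMIs gave −10.38 in the compartment, −13.43 in endothelial-like, −1.797 in T/NK-like, 3.558 in B/plasma-like and −1.493 in myeloid-like cells. Cells thinned to 2000 UMIs gave −16.99 in the compartment, −15.83 in endothelial-like and 2.476 in B/plasma-like cells, and to 500 UMIs −0.1825 in B/plasma-like cells. Without Spc24 the values were 1.375 in the compartment and 1.621 in B/plasma-like cells. Without mitochondrial and rRNA-overlapping genes they were −24.72 in the compartment, −14.84 in endothelial-like, 0.442 in B/plasma-like and −1.125 in myeloid-like cells. B/plasma-like cells gave 1.121 with at least 500 genes, 1.246 with cycle genes in the clustering and 0.0105 without the top doublet scores, where myeloid-like cells gave −1.21, and resolution 0.5 gave 0.4305 in myeloid-like cells.

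For S phase, at least 1 UMI gave 4.97 in mesenchymal-like, −8.41 in B/plasma-like, −4.69 in myeloid-like and 11.56 in neutrophil-like cells, and at least 3 UMIs gave −4.04 in endothelial-like, −0.5334 in mesenchymal-like, −0.2167 in B/plasma-like and 0.877 in neutrophil-like cells. At most 10% mitochondrial UMIs gave −10.37 in endothelial-like, −4.944 in B/plasma-like and −3.644 in myeloid-like cells. Cells thinned to 2000 UMIs gave −15.13 in endothelial-like, 1.421 in B/plasma-like and −3.762 in myeloid-like cells, and to 500 UMIs −2.222 in endothelial-like, 0.1583 in B/plasma-like, −0.7803 in myeloid-like and 0.552 in neutrophil-like cells. Without mitochondrial and rRNA-overlapping genes the values were −7.779 in the compartment, −17.9 in endothelial-like, −3.944 in mesenchymal-like, −6.201 in B/plasma-like and −4.737 in myeloid-like cells, and resolution 0.5 gave −0.1805 in myeloid-like cells.

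The members' median log2 ratio of CPM + 1 in T/NK-like cells was 0.07 with both KLF2 libraries and ran between −0.3745 without KLF2 replicate 1 and 0.3292 without KLF2 replicate 2. Without replicate 1 and without replicate 2 it was 0.23 and 0.70 in the compartment (0.48 with both), −1.01 and −0.06 in mesenchymal-like (−0.43), −0.08 and −0.41 in myeloid-like (−0.24), 0.54 and 0.67 in neutrophil-like (1.19), −1.19 and −0.78 in endothelial-like (−0.97) and −0.31 and −0.50 in B/plasma-like cells (−0.42). Many members had no vector UMI in neutrophil-like cells, so the added 1 CPM weighs on the medians of that class. There edgeR tested 7 members, with a median log2 fold change of −0.41.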
